A study of Mus musculus with 4 samples.

Results

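The dipeptidyl peptidase 4 family comprises Dpp4, Fap, Dpp6, Dpp8, Dpp9 and Dpp10, and its chromatin accessibility was read in immortalized mouse embryonic fibroblasts (imMEFs) with and without the histone acetyltransferase HAT1. ATAC-Seq uses the Tn5 transposase to cut open chromatin, so the reads over a region follow how accessible it was. A site was counted for a gene when it overlapped the gene body or lay within 50 kb of its transcription start site (TSS). By this rule, 22 of the 82325 sites in the table belonged to the family (0.0267%), with 6 at Dpp4, 4 at Fap, 2 at Dpp6, 3 at Dpp8, 7 at Dpp9 and 0 at Dpp10. The family was chosen with the genotype contrast of these data in view, so the differences between HAT1-/- and HAT1+/+ cells at its sites are given as a description and no test is drawn from them.

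The enzymes of this family remove dipeptides from the amino end of peptides and proteins, usually after a proline or an alanine. DPP4, also known as CD26, and FAP, the fibroblast activation protein, are serine peptidases of the cell surface, and DPP4 inactivates incretin hormones and chemokines whereas FAP marks activated fibroblasts of tumours and wounds. DPP8 and DPP9 are active enzymes inside the cell, and they hold the inflammasome sensor NLRP1 in check. DPP6 and DPP10 have lost the catalytic activity and are known instead as auxiliary subunits of the Kv4 potassium channels of neurons.

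The 4 libraries came from 4 separate lines in a C57bl6 background, 2 labelled HAT1 WT (here WT) and 2 labelled HAT1 KO (here KO). All of the lines, WT lines included, had been derived from mid-gestation embryos and immortalized with a plasmid for the SV40 T antigen, and the KO lines came from embryos that lacked HAT1 throughout. Whether each line was a clone was not stated, so the spread within a genotype is a spread between these lines. In such bulk material, a site that is open in fewer cells and a site that is less open in all of them cannot be told apart.

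The values are normalized counts, that is, read counts that the authors had scaled per library and rounded. Library medians lay between 51 and 53, and the estimated reads in sites were 9430000 and 11400000 in WT replicates 1 and 2 and 7830000 and 5660000 in KO replicates 1 and 2, so counting error was larger in KO. The Hat1 promoter site had 390 and 384 in WT and 438 and 368 in KO, and it gave no check of the genotype. Promoter sites were found at 7 of 9 fibroblast markers, 3 of 5 epithelial, 2 of 3 endothelial, 1 of 3 blood, 2 of 4 neural and 0 of 2 muscle markers. The summed promoter signal of the fibroblast markers was 1212 and 1435 in WT and 1351 and 1428 in KO, and that of the other lists with a promoter site lay between 59 and 215 in every library. These sums cover unlike numbers of promoters, so they do not rank the lists. The 1 blood promoter, at Cd68, had 195 and 157 in WT and 215 and 152 in KO. Fibroblast promoters ran from a mean of 20.5 at Dcn to 360.5 at Twist1. Of the marker sites, 1 at Cdh1 was called lower in KO by the rule given below (0.302% of all sites). The other marker lists had 0 calls. An unadjusted limma p under 0.05 was found at 2 of 83 fibroblast, 3 of 35 epithelial and 2 of 19 endothelial sites. It was found at 3 of 25 blood, 0 of 10 neural and 0 of 4 muscle sites, against 3.13% of all sites.

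The family was divided by whether its promoters were accessible. A promoter site, meaning a site within 3 kb of the gene's TSS, was present at Dpp8, Dpp9 and Fap and was not listed at Dpp4, Dpp6 or Dpp10. Among all 21911 protein-coding genes, 63.8% had such a site, with a median of 228 normalized counts at the strongest one. Dpp8 and Dpp9 lay above that median, at percentiles 74.5 and 73.3 of the genes with a promoter site, whereas Fap lay at percentile 12.9. A site that is not listed means that no peak was called there in these libraries, not that no read fell there.

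All annotated transcript starts of each gene, the main TSS included, were counted as well. A site lay within 3 kb of 3 of 8 distinct transcript starts of Dpp8, 2 of 3 of Dpp9 and 6 of 7 of Fap. At Dpp4 this held for 1 of 6 starts, an internal one, and at Dpp6 and Dpp10 for 0 of 8 and 0 of 4. The starts with a site at Dpp8 and Dpp9 all lay within the promoter site already counted, and their internal starts had none. Fap had a site at an internal start and at the starts around its TSS. The counts are therefore largely the promoter result again.

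The promoter sequences of members with and without a promoter site are shown side by side. RefSeq windows of 300 bases around the TSS on GRCm38.p6 matched 5 of the 6 members, and Fap had no entry. Each sequence below is the part of the window upstream of the outermost annotated start, 5′ to 3′ on the strand of the gene, with every CG dinucleotide in capitals. The Dpp8 stretch lies at chr9:65032208-65032413 (plus strand), Dpp9 at chr17:56218906-56219139 (minus), Dpp4 at chr2:62412232-62412481 (minus), Dpp6 at chr5:26817107-26817202 (plus) and Dpp10 at chr1:124045560-124045809 (minus).
Dpp8 promoter: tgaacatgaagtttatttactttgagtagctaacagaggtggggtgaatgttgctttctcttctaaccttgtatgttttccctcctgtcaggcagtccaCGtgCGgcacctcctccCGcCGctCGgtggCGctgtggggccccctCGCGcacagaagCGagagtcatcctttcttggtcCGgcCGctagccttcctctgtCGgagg
Dpp9 promoter: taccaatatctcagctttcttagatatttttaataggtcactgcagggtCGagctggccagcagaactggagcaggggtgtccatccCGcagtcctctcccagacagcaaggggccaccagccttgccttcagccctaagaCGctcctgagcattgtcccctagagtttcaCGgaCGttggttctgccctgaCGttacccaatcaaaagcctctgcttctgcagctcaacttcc
Dpp4 promoter: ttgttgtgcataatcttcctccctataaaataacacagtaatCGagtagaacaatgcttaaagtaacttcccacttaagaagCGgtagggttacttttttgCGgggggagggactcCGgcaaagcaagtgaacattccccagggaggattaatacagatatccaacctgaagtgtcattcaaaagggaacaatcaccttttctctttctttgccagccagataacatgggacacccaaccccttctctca
Dpp6 promoter: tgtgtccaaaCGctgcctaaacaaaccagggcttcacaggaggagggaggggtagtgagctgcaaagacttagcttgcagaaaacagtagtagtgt
Dpp10 promoter: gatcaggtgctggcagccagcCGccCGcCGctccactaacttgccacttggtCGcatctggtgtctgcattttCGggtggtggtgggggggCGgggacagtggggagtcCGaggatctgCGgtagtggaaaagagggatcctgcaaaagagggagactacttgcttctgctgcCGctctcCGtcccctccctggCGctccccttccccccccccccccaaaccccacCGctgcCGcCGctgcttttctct

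Over the whole window, Dpp8 had 24 CG dinucleotides and Dpp9 had 15, at percentiles 81.6 and 67.0 of all promoter windows, whose median was 7. Dpp4 had 4, at percentile 38.0. The first Dpp6 window had 10 and the windows of its other starts had 6 and 16. Dpp10 and the Dpp6 window with 16 did not follow the order of accessibility. The Dpp10 window held 21 CG dinucleotides, at percentile 76.9, and that Dpp6 window was at percentile 68.6, so both lay above Dpp9. No site overlapped either of them. The letters TATAAA were present, on either strand, in the windows of Dpp4 and Dpp6 and in 13.6% of all windows. The letters CCAAT, on either strand, were present in those of Dpp9 and Dpp10 and in 37.4% of all windows. A match of letters is a description of the sequence and not of a bound factor.

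**Figure D1:**
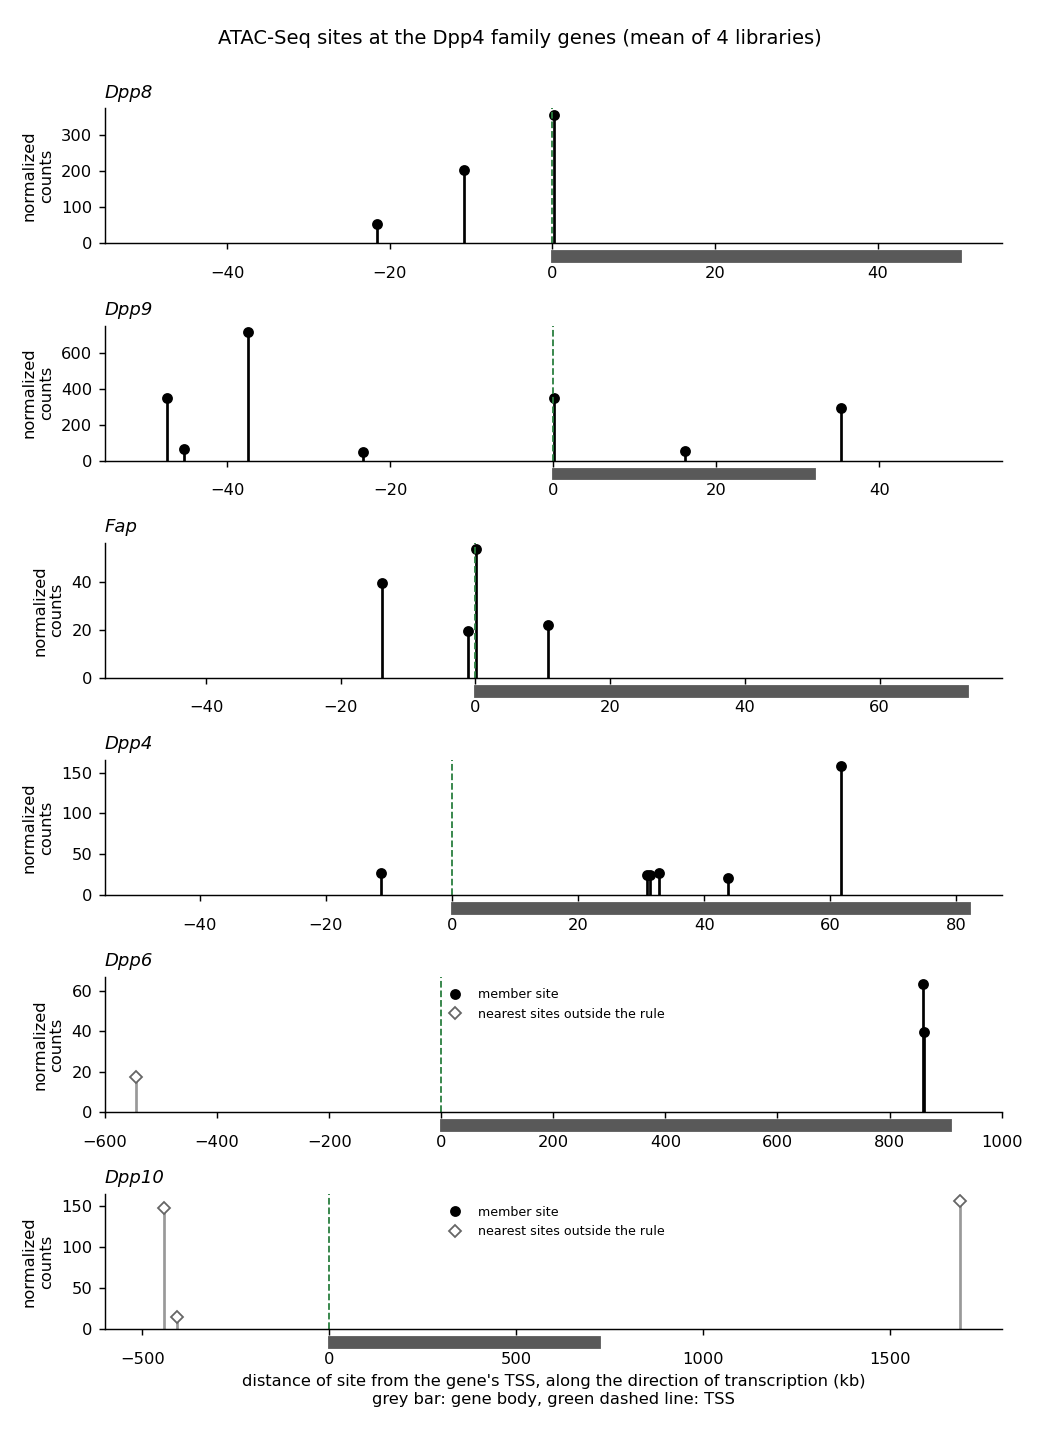
Mean normalized counts of the 4 libraries (vertical axis) at each site of the 6 genes, by distance of the site centre from the TSS in kb along the direction of transcription (horizontal axis). Filled points are sites of the gene and open diamonds are the nearest sites outside the rule for Dpp6 and Dpp10. Dpp8, Dpp9 and Fap have a site at the TSS, the tallest Dpp4 site lies 61.8 kb into the gene, and the Dpp10 body holds 0 sites.

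Dpp8, one of the cytosolic peptidases, lies at chr9:65032414-65082651 (plus strand, 50.2 kb). Its promoter site (chr9:65032100-65033134), which covers the TSS and a 5′ untranslated exon, had 329 and 337 normalized counts in WT and 373 and 385 in KO. Both KO lines lay above both WT lines, with a log2 difference of 0.19 ± 0.13 (SE, n = 2 per genotype). Scaling all libraries to the same total lowered this difference to 0.12 and quantile normalization to 0.07. It was 1 of 3 Dpp8 sites and the only one that overlapped the gene itself.

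The other Dpp8 sites lay upstream, in the neighbouring gene Hacd3. The larger, at the Hacd3 promoter (chr9:65020956-65022057), had 215 and 202 in WT and 198 and 194 in KO. Both KO lines lay below both WT lines there, at a log2 difference of -0.09 ± 0.19 (SE, n = 2 per genotype), the opposite direction to the Dpp8 promoter, whose TSS is 10.4 kb away. The Hacd3 intronic site had values from 39 to 69, and the genotypes overlapped.

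Dpp9, the other cytosolic peptidase, lies at chr17:56186807-56218905 (minus strand, 32.1 kb). At its promoter site (chr17:56218458-56219284), over the TSS and untranslated exon sequence, the WT lines had 340 and 334 and the KO lines 312 and 408. The KO lines lay on either side of the WT lines, so the log2 difference of 0.08 ± 0.17 (SE, n = 2 per genotype) was smaller than the gap of 0.39 between the KO lines. Per 100 bp of site, the mean over libraries was 42.1 normalized counts at Dpp9 and 34.4 at Dpp8, against 7.99 at the Fap site over its TSS.

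The site inside Dpp9 over a coding exon (chr17:56202481-56202940) was the least even of the family between the KO lines. It had 54 and 41 in WT, and 96 and 18 in KO, a log2 difference of -2.35 between KO replicates 2 and 1 and a genotype difference of -0.16 ± 0.75 (SE, n = 2 per genotype). KO replicate 1 was the highest library and KO replicate 2 the lowest.

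The remaining Dpp9 sites belonged mostly to the promoters of its neighbours, since Dpp9 sits in a gene-dense stretch. Its own body held 2 of the 7 sites and 21.4% of the summed signal. The site with the highest mean was the Fem1a promoter (chr17:56255692-56257043), with 681 and 694 in WT and 742 and 759 in KO, a log2 difference of 0.13 ± 0.08 (SE, n = 2 per genotype). The farthest site (chr17:56265865-56266737), intergenic and 47.0 kb from the Dpp9 TSS, had 308 and 327 in WT and 411 and 355 in KO, at 0.27 ± 0.15 (SE, n = 2 per genotype). At both of these sites the KO lines lay above the WT lines. The next site beyond the limit, 50.3 kb from the TSS (chr17:56269175-56269592), had 127 and 111 in WT and 126 and 86 in KO, and the genotypes overlapped.

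Fap, a serine peptidase of the fibroblast surface, lies at chr2:62500943-62574075 (minus strand, 73.1 kb) and had the weakest accessible promoter of the 3. The site over its TSS (chr2:62573638-62574310), which reaches into coding and untranslated exon sequence, had 32 and 67 in WT and 39 and 77 in KO. Replicate 1 was low and replicate 2 high in each genotype, by 1.04 and 0.96 on the log2 scale, and the genotypes overlapped at a difference of 0.24 ± 0.51 (SE, n = 2 per genotype). The replicate numbers only follow the order of deposit. In the sample names, the WT replicate 1 and KO replicate 2 lines share a number whose meaning was not stated, and no pairing was assumed.

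The smaller promoter site, 0.97 kb upstream of the Fap TSS (chr2:62575047-62575348), showed the family's largest rise. It had 3 and 23 in WT and 14 and 38 in KO, an overlap of the genotypes despite a log2 difference of 1.30 ± 1.02 (SE, n = 2 per genotype). Leaving out WT replicate 1, the library with 3, lowered the difference to 0.01, and leaving out WT replicate 2 raised it to 2.60. The estimated reads behind these values were 4, 32, 13 and 25, and the gap of 2.58 between the WT lines was larger than the genotype difference.

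All 4 Fap sites were higher in replicate 2 than in replicate 1, within WT and within KO. Summed over the gene, the values were 86 and 165 in WT and 98 and 192 in KO. The part of line identity in the Fap values was not tested.

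Dpp4 lies beside Fap on chromosome 2, at chr2:62330073-62412231 (minus strand, 82.2 kb), with the glucagon gene Gcg in the 88.7 kb between them. Its signal lay inside the gene and not at its start, and 90.2% of the summed signal was over the body. The intronic site 61.8 kb from the TSS (chr2:62350191-62350756) had 100 and 170 in WT and 176 and 185 in KO. Both KO lines lay above both WT lines, yet KO replicate 1 lay just above WT replicate 2, and the difference of 0.47 ± 0.30 (SE, n = 2 per genotype) was smaller than the gap of 0.76 between the WT lines.

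This intronic site, at a mean of 27.9 normalized counts per 100 bp, was denser than the other Dpp4 sites, which lay between 5.28 and 8.42. Of those others, 4 lay in the middle of the gene and overlapped the antisense gene Gm13561, with values from 12 to 35 in every library. ATAC-Seq carries no strand, so a site there cannot be assigned to Dpp4 or to Gm13561. At each of these 4 the genotypes overlapped, with log2 differences from 0.04 to 0.39.

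The upstream Dpp4 site is described although it fell outside the naming rule, and it was chosen after its values were seen. It lies 10.9 kb upstream of the Dpp4 TSS within an intron of Gm13561 (chr2:62423160-62423680) and had 42 and 40 normalized counts in WT and 13 and 15 in KO. The means were 41.0 ± 1.41 in WT and 14.0 ± 1.41 in KO (SD, n = 2 each), a log2 difference of -1.49 ± 0.43 (SE, n = 2 per genotype), and this was the family's largest fall. Both KO lines lay below both WT lines, and the lines of one genotype differed by no more than 0.19 on the log2 scale. The estimated reads behind the values were 49 and 56 in WT against 12 and 10 in KO, and the site stood at percentile 24.6 of all sites by mean value. Over the scalings, pseudocounts and left-out libraries tried, the difference ran from -1.58 to -1.16.

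The central 300 bases of the strongest Dpp4 site and of this upstream site are shown, since they held the highest Dpp4 signal and the largest difference. They are on the plus strand of GRCm38, at chr2:62350323-62350622 and chr2:62423270-62423569. Capitals mark the letters TGANTCA, with N for any base, searched on both strands, which read alike. This is a loose form of the binding motif of the AP-1 transcription factors.
Dpp4 site 61.8 kb inside: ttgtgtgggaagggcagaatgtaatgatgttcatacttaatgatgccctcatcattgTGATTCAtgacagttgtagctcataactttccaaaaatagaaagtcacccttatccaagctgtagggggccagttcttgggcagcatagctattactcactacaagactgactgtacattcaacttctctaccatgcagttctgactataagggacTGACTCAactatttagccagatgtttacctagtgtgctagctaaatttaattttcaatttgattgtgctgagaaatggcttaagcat
Dpp4 site 10.9 kb upstream: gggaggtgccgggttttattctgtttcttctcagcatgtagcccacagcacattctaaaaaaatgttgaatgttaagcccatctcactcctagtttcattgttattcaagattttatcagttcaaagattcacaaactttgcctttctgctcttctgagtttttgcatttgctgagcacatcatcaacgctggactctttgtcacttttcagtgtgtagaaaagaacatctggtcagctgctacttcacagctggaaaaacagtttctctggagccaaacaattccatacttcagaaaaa

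The intronic site carried 2 such matches and the upstream site 0. Over the family, 8 of 22 site centres (36.4%) held at least 1 match, near the 37.7% of all site centres. Among promoter windows of the same length, 7.81% did.

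Dpp6, an auxiliary subunit of the Kv4 channel, is the longest member, at chr5:26817203-27727505 (plus strand, 910 kb). Its 2 sites lay close together in an intron near the 3′ end, 860 and 862 kb from the TSS. The stronger (chr5:27677276-27677779) had 75 and 60 in WT and 75 and 44 in KO, a log2 difference of -0.22 ± 0.38 (SE, n = 2 per genotype), and the weaker (chr5:27679212-27679599) had 42 and 42 in WT and 46 and 29 in KO, at -0.20 ± 0.39 (SE, n = 2 per genotype). In each, KO replicate 2 was the lowest library and the genotypes overlapped.

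The centres of the Dpp6 sites are shown because they were the only accessible sequence listed in this gene (plus strand of GRCm38, chr5:27677377-27677676 and chr5:27679255-27679554, TGANTCA in capitals). Both held the motif, with 1 match in the stronger site and 2 in the weaker.
Dpp6 stronger site: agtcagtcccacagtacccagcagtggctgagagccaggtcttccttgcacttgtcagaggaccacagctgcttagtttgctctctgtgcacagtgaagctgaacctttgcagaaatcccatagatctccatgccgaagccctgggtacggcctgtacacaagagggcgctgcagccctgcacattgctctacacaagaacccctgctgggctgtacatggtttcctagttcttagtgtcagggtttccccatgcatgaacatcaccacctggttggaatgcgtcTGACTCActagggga
Dpp6 weaker site: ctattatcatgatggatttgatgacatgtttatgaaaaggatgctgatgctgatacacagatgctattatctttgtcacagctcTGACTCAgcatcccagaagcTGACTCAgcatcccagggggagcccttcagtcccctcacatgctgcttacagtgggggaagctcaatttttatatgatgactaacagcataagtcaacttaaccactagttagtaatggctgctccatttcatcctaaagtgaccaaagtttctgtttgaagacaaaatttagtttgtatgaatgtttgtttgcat

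Dpp10, the other auxiliary Kv4 subunit, lies at chr1:123321471-124045559 (minus strand, 724 kb) and had 0 sites. The stretch without sites around its TSS was 2096 kb long, rank 52 of the 82304 gaps between neighbouring sites, whose median was 10.8 kb. The gap around the Dpp6 TSS was 1405 kb, at rank 120. Body GC content was lowest at Dpp10 (37.8%) and highest at Dpp9 (54.2%), with Dpp6 at 43.9%.

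Long genes as a class had more sites than these. The length limit of 500 kb was chosen after the values were seen, and 230 protein-coding genes reached it, with a median of 12 sites in the body and 1.48 sites per 100 kb. Dpp6 had 0.22 per 100 kb, and 44 of the 230 had a lower density. Dpp10 was among 21 with 0 body sites. That group also held the neuronal genes Csmd1, Cntn5, Cntn4 and Ntm, and others such as Thsd7b, Egfem1, Iqcm, Skint5 and L3mbtl4. Whether neuronal genes were more frequent there than among all 230 was not tested. A promoter site was not listed at 99 of the 230 (43.0%).

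**Figure D2:**
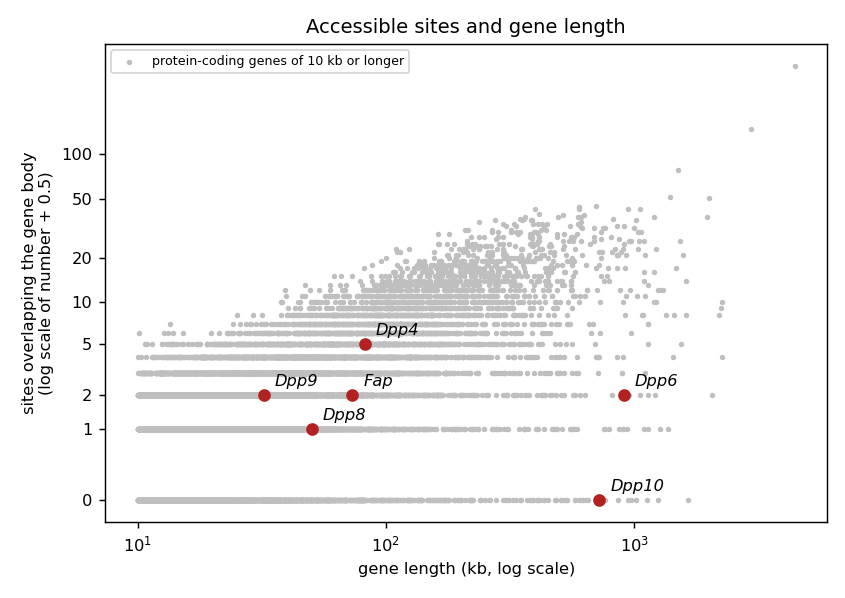
Number of sites overlapping the gene body (vertical axis, log scale of the number plus 0.5) against gene length in kb (horizontal axis, log scale) for protein-coding genes of at least 10 kb, with the 6 family genes in red. Dpp6 (2 sites in 910 kb) and Dpp10 (0 in 724 kb) lie at the lower right, below the median of 12 sites for genes of 500 kb or longer.

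The sites nearest to the starts of Dpp10 and Dpp6 are outside the rule and were described after their values were seen. Upstream of Dpp10, 408 kb from its TSS, a site at chr1:124453172-124453507 had 20 and 29 in WT and 10 and 3 in KO, a log2 difference of -1.92 ± 0.80 (SE, n = 2 per genotype). The next one, 442 kb upstream (chr1:124487873-124488996), had 215 and 287 in WT and 39 and 48 in KO, at -2.49 ± 0.29 (SE, n = 2 per genotype). Both KO lines were below both WT lines at each. On the far side of the gene, 1688 kb from the TSS, the site at chr1:122357033-122357395 had 170 and 83 in WT and 158 and 215 in KO, and the genotypes overlapped. Upstream of Dpp6, 545 kb from its TSS, a site at chr5:26272034-26272561 had 30 and 30 in WT and 5 and 5 in KO, at -2.37 ± 0.65 (SE, n = 2 per genotype).

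Within 1.5 Mb upstream of Dpp10, 14 of 18 sites were lower in KO, where 49.3% of all sites were lower, and their median log2 difference was -0.38. Of these 18 sites, 2 passed the call rule, an unadjusted limma p under 0.01 with an absolute log2 difference of at least 1. They were the 442 kb site and another 1191 kb upstream, with 109 and 57 in WT and 23 and 14 in KO. The latter differed by -2.07 ± 0.48 (SE, n = 2 per genotype), and the 408 kb site did not pass. Over all sites, 0.373% passed the call rule. Within 1.5 Mb of its 3′ end, 3 of 4 sites were lower, with a median of -0.52 and 0 calls. The median over all sites was 0.01.

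The study defined HAT1-dependent accessibility domains in primary MEFs and reported that immortalized MEFs gave very similar patterns. Its listed domains were those of the primary MEFs. The same kind of rule was applied here to the immortalized lines, so these domains are a separate list. The log2 difference was averaged over 25 consecutive sites, and windows with a mean under -0.58 no more than 1 Mb apart were joined, which gave 170 domains. The windows centred on family sites ran from -0.32 to 0.28, so 0 of the 22 lay under -0.58. For comparison, 3.44% of all windows lay under -0.58. Of the family sites, 0 of 22 lay in a joined domain, and the share of all sites in such domains was not counted. By gene, the mean was -0.30 at Dpp6, -0.08 at Dpp8, -0.03 at Dpp9, 0.13 at Dpp4 and 0.26 at Fap. This order depended on the settings. Without KO replicate 2 the mean of Dpp6 was -0.09, above Dpp8 at -0.13, and with windows of 15 sites Fap was at 0.13, below Dpp4 at 0.16. The Dpp9 mean ran from -0.14 without WT replicate 2 to 0.08 without WT replicate 1. The windows on the sites that flank the Dpp10 gap were at -0.51 and -0.53. A domain of 0.064 Mb lay farther upstream of Dpp10, at chr1:125370827-125434900, and did not contain the gene.

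Over all 22 sites, 14 were higher and 8 lower in KO, and 20 had a log2 difference within 0.5 of 0. By the call rule, 0 of 22 were called, where the share over all sites was 0.373%, made of 0.302% lower and 0.0705% higher in KO. At an adjusted limma p under 0.05, 0 of all 82325 sites passed, so this share is not a count of established changes. At an unadjusted limma p under 0.05, 1 of 22 passed, the upstream Dpp4 site, against 3.13% of all sites. A log2 difference of -1 or lower was seen at 1 site (4.84% of all sites) and of 1 or higher at 1 site (1.59%). Both KO lines lay above both WT lines at 5 sites (14.6% of all sites) and below at 2 (14.3%). Because the contrast was in view when the family was chosen, nothing is read from these shares.

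The median log2 difference was 0.06 in the family and 0.01 over all sites, and the median absolute difference was 0.17 and 0.25. The median absolute gap between the WT lines was 0.32 at family sites and 0.34 over all sites, and that between the KO lines was 0.34 and 0.43. At 15 of the 22 sites, and at 59.1% of all sites, the gap between the WT lines was larger than the difference between genotypes, where a gap between single lines has a wider spread than a difference of means. The family sites resembled the rest in strength as well, with a median mean value of 53 against 52 and a median length of 466 against 440 bp. By annotation 12 were within 3 kb of some annotated start, 6 were intronic, 3 intergenic and 1 exonic.

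**Figure D3:**
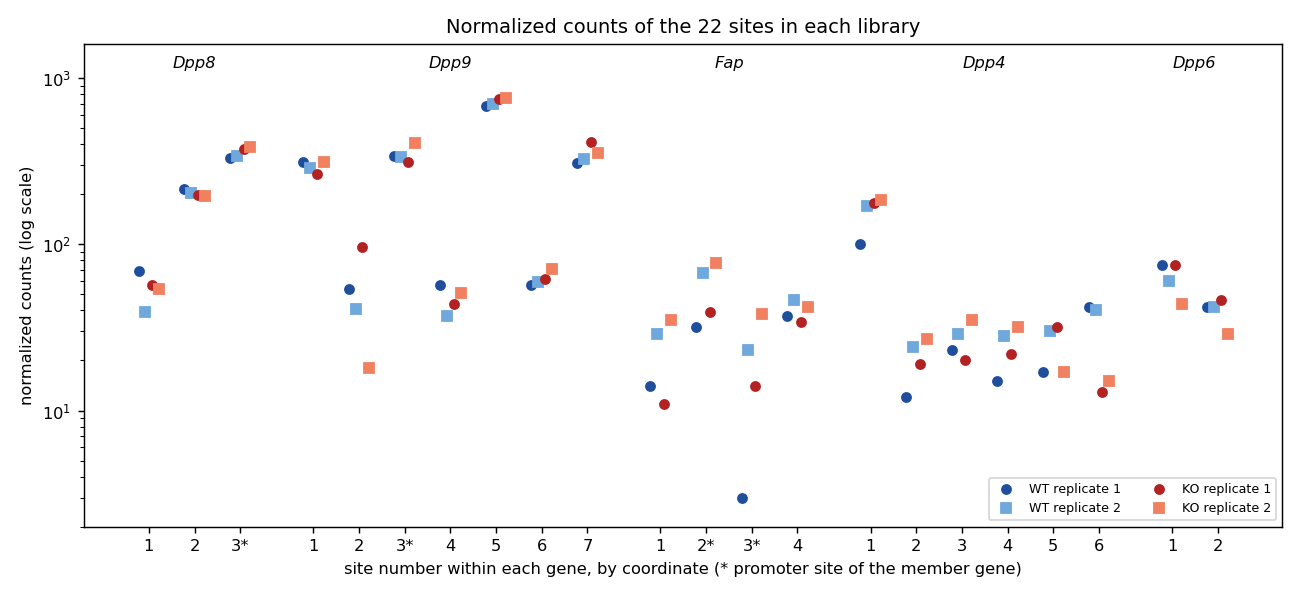
Normalized counts (vertical axis, log scale) of each of the 22 sites in each library, grouped by gene and numbered by coordinate along the horizontal axis, with blue for WT, red for KO and an asterisk at promoter sites of the gene itself. Points of the Dpp8 and Dpp9 promoters lie close together between 312 and 408, the Fap sites split by line within each genotype, and Dpp4 site 6, the upstream one, has WT at 42 and 40 against KO at 13 and 15.

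**Figure D4:**
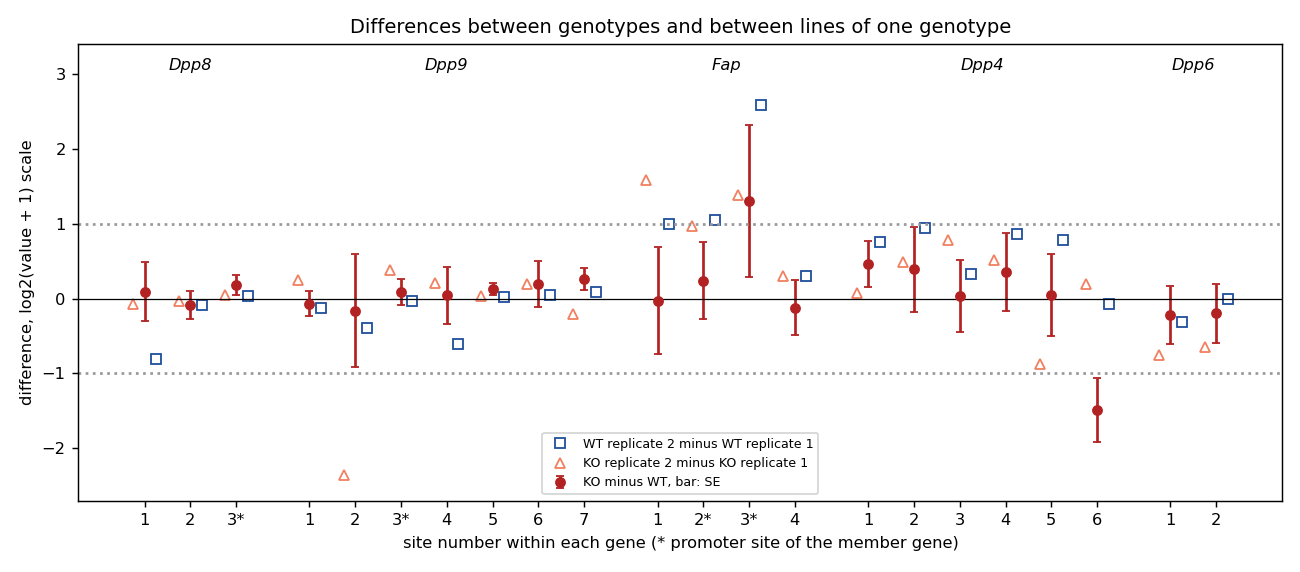
Difference on the log2(value + 1) scale (vertical axis) at each of the 22 sites, with KO minus WT as filled points with SE bars and the gaps between lines of one genotype as open squares (WT) and triangles (KO). Dotted lines mark differences of 1 and -1, and the only filled points beyond them are Fap site 3 at 1.30 and Dpp4 site 6 at -1.49.

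Summed over the sites of each gene, the genotypes differed little, and none of the 5 genes with sites passed the call rule, for which the share over all 18801 protein-coding genes with a site was 0.303%. At an unadjusted limma p under 0.05, 0 of the 5 genes passed, against 4.14% of all genes. Dpp9 had 1811 and 1781 in WT and 1930 and 1975 in KO, a log2 difference of 0.12 ± 0.09 (SE, n = 2 per genotype). Dpp8 had 613 and 578 in WT and 628 and 633 in KO, at 0.08 ± 0.12 (SE, n = 2 per genotype). In these sums both KO lines lay above both WT lines, and the share of all gene sums in that order was not counted. The sums also included the promoters of neighbouring genes. A further scaling made the totals of all gene sums equal between libraries, where sites shared by genes count repeatedly. With it the differences were 0.04 at Dpp9 and -0.001 at Dpp8.

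Dpp4 had 209 and 321 in WT and 282 and 311 in KO, at 0.19 ± 0.25 (SE, n = 2 per genotype). Fap, with the sums given above, stood at 0.20 ± 0.46 (SE, n = 2 per genotype). Dpp6 had 117 and 102 in WT and 121 and 73 in KO, at -0.21 ± 0.35 (SE, n = 2 per genotype), which turned to 0.05 with quantile normalization. The genotypes overlapped in all 3. Among the gene sums of all genes the Dpp4 and Fap differences stood at percentiles 83.9 and 85.3, and the median over all genes was 0.06. Leaving out 1 library turned the sign of all 3. The Dpp4 sum was at -0.12 without WT replicate 1. The Fap sum was at -0.26 without WT replicate 1 and at -0.28 without KO replicate 2. The Dpp6 sum was at 0.15 without KO replicate 2.

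**Figure D5:**
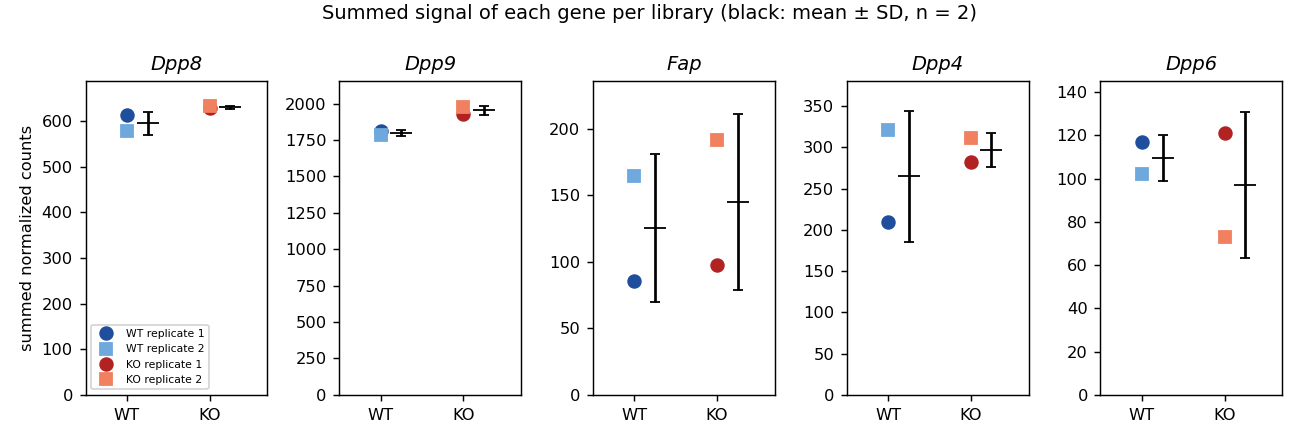
Summed normalized counts of the sites of each gene (vertical axis from 0, a separate scale per gene) in the 2 WT and 2 KO libraries, with the mean ± SD of each genotype in black (n = 2). The KO points lie above the WT points for Dpp8 and Dpp9, and the genotypes overlap for Fap, Dpp4 and Dpp6.

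The genes most like each member in their pattern over the 4 libraries were named from 16462 protein-coding genes with at least 3 sites that share none with the family, by the smallest Euclidean distance between centred log2 sums. Fap lay nearest to Olfr456, an olfactory receptor gene with 220 and 377 in WT and 245 and 455 in KO, and then to Olfr457, at distances of 0.12 and 0.18. Dpp6 lay nearest to Ablim3, with 585 and 501 in WT and 613 and 369 in KO, and then to Alox8, at 0.03 and 0.04. For Dpp4 the nearest were Pappa and Immp2l, at 0.05 each, for Dpp8 Vmn1r1 and Man1a and for Dpp9 Gm20458 and Stat6, each at up to 0.01. These sums take in every site within 50 kb of the TSS, so they need not be signal of the named gene. Vmn1r1 had 3 sites by the rule, 0 in its body and 0 at its promoter. Genes that lie close together can also share sites.

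The partners of the family were read in the same table. Of the genes for the Kv4 channels, the pore subunits Kcnd1, Kcnd2 and Kcnd3 had 8 sites and 0 calls, with 0 at an unadjusted limma p under 0.05, and 2 of 3 had a promoter site. Kcnd2 had 1 site, with 8 and 9 in WT and 0 and 36 in KO. The KChIP subunits, cytosolic calcium sensors that assemble with the same channels, had 35 sites, of which 1 was called and lower in KO (0.302% of all sites) and 3 had an unadjusted limma p under 0.05 (3.13% of all sites). That site was the promoter site of Kcnip4, with 38 and 71 in WT and 8 and 2 in KO, a log2 difference of -3.35 ± 0.76 (SE, n = 2 per genotype). Like Dpp6 and Dpp10, Kcnip4 is a long gene, of 1135 kb.

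Other peptidases (Prep, Prepl, Dpp3, Dpp7, Prcp, Ctsc and the tripeptidyl peptidases Tpp1 and Tpp2) all had a promoter site, 8 of 8, with 48 sites and 0 calls, and 3 at an unadjusted limma p under 0.05. The lysosomal enzyme gene Ctsc had 107 and 61 at its promoter in WT and 47 and 135 in KO, whereas Tpp2, a cytosolic peptidase, had 587 and 607 in WT and 708 and 687 in KO. The DPP4 partners and substrates Ada, Cav1, Igf2r, Cxcl12 and Cxcr4 likewise all had a promoter site, 5 of 5, with 51 sites and 0 calls, and 0 at an unadjusted limma p under 0.05. Inflammasome genes were read as well, since DPP8 and DPP9 hold the sensor protein NLRP1 in check. The sensor genes Nlrp1a and Nlrp1b had 0 sites, while Casp1 and Gsdmd together had 15 sites and 0 calls, and 1 at an unadjusted limma p under 0.05. The neighbours of Dpp4 and Fap on chromosome 2, Gcg and Ifih1, had 7 sites and 0 calls, and 0 at an unadjusted limma p under 0.05.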

How the data were processed

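Per the study methods and the submitters' processing notes, BWA 0.7.12 (genome mm10), MACS2 2.1.0 and DESeq2 were used by the authors for alignment, peak calling and their genotype comparison. The deposited value per site and library is a score: the authors scaled read counts per library and rounded them to whole numbers, so depth was estimated from gaps in the low values, only roughly for KO replicate 1 (pattern match 0.4). Read filtering and the Tn5 offset were not given in the sources used here. The deposited fold changes and p-values of the authors' comparison were not used.

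Since the table held no raw counts, limma 3.58.1 with an intensity trend (R 4.3.3) was fitted to log2(value + 1) over all 82325 sites, with no filter or covariate. Differences on this scale understate the change of low sites. Gene models were GENCODE vM21 on GRCm38, and promoter windows were RefSeq. Named sites of each gene were its promoter sites, the highest mean, called sites, and the largest fall and rise among sites at or above the median value. Members, lists and tests were chosen with earlier results of these data known. Python 3.11.15, numpy 2.4.6, pandas 2.3.3 and pysam 0.24.0 were used.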

Additional observations from a re-analysis of the deposited data

How the results depend on the processing

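The family had 0 calls under every alternative run. Over all sites the 307 calls became 115 among sites at or above the median value and 0 at an adjusted limma p under 0.05, and ran from 36 to 612 when 1 library was left out (71 without WT replicate 1, 36 without WT replicate 2, 612 without KO replicate 2). The lone library left was assumed to vary like the others. Of these calls 81.1% were lower in KO, against 28.2% without WT replicate 1, 38.9% without WT replicate 2 and 66.1% among the stronger sites. The family median ran from -0.0269 without WT replicate 1 to 0.168 without WT replicate 2. With equal totals, taken over all gene sums for the genes and over all sites for the promoter, the Dpp8 sum was -0.00132, the Dpp9 sum 0.0361 and the Dpp8 promoter 0.118. With quantile normalization the Dpp9 sum was 0.0113 and the Dpp8 promoter 0.0677. Over the gene body only, the Dpp8 sum was 0.19, which is the value of its promoter site, the only site in the body. Library totals were 8008069 and 8150872 in WT and 8427919 and 8516263 in KO, so scaling sites to equal totals lowers KO against WT. What set the totals apart, and what lay behind the shift with quantile normalization, was not tested. Leaving out 1 library took the Fap site over the TSS from -0.28 (without WT replicate 1) to 0.76 (without WT replicate 2) and the Dpp9 promoter from -0.11 (without KO replicate 2) to 0.28 (without KO replicate 1). No paired analysis was possible because replicate numbers follow the order of deposit and only 1 line of each genotype (WT replicate 1 and KO replicate 2) shares a number in its name, of unstated meaning.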
